A study of Mus musculus with 22 samples.

Results

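The miR-15 and miR-16 family was followed through small RNA sequencing of mouse round spermatids (RS), which are the products of meiosis and are later remodelled into sperm. Its 6 members in these data, mmu-miR-15a-5p, mmu-miR-15b-5p, mmu-miR-16-5p, mmu-miR-195a-5p, mmu-miR-322-5p and mmu-miR-497a-5p, were taken by name from a count table of 1966 mature miRNA names because they carry the same seed. All 6 were detected in all 22 libraries, and all 6 passed the filter on low counts in every comparison.

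RS came from the testes of mice aged 75 to 85 days. The KO mice lacked GRTH/DDX25, a testis-specific RNA helicase that is needed for spermatids to elongate. The KI mice carried a point mutation in GRTH through which the phosphorylated form of the protein is lost while the unphosphorylated form remains. The libraries were made in 2 batches with their own WT mice, so that 5 KO libraries stood against 5 WT libraries of the KO batch and 6 KI libraries against 6 WT libraries of the KI batch. RS had been enriched by enzymatic digestion of the testis and sedimentation, and in such bulk samples fewer cells of a type and less RNA per cell cannot be told apart. The labels do not say that each library came from its own mouse, so p-values measure the spread between these libraries, which may be technical.

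Library totals ran from 559957 to 881323 counts in KO, from 870913 to 1081333 in the WT of its batch, from 2107461 to 3101145 in KI and from 2067322 to 3239357 in the WT of that batch, so the KO comparison rested on the shallower libraries. The germ cell miRNAs miR-34b-5p, miR-34c-5p and miR-449a-5p, fixed as markers of the labelled cell type, summed to between 187000 and 351000 CPM in every library, CPM being counts scaled to a library of standard size. The mRNA of GRTH is not measured by a miRNA table, so the genotype labels were not checked here.

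A miRNA pairs with its target mRNAs mainly through its seed, bases 2 to 8 from the 5′ end, and the bound mRNA is repressed or degraded. Members of the miR-15 and miR-16 family therefore share many predicted targets, and they are known as brakes on the cell cycle that act on cyclins and other drivers of cell division. They are made from several short clusters, some in the introns of host genes, so the members that share a seed do not all share a precursor.

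The mature sequences, from RefSeq annotation of GRCm38.p6, are shown to make the shared seed and the differing 3′ ends visible. The seed is in capitals.
mmu-miR-15a-5p: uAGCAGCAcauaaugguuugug
mmu-miR-15b-5p: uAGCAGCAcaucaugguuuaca
mmu-miR-16-5p: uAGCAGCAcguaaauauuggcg
mmu-miR-195a-5p: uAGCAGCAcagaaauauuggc
mmu-miR-497a-5p: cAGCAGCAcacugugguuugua
mmu-miR-322-5p: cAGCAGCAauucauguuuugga
mmu-miR-503-5p, a neighbour of miR-322 and not a member: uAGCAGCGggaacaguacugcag

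Outside the seed the members fell into pairs. Aligned from the 5′ end without gaps, miR-16-5p and miR-195a-5p were identical at 19 of 21 bases, and miR-15a-5p and miR-15b-5p at 18 of 22. miR-322-5p and miR-16-5p were identical at only 12 of 22 bases. miR-503-5p matched the family at bases 2 to 7 but not over the whole seed. The seed was looked up only in the 1675 of 1966 names with a mature sequence in RefSeq. These names held 70.36% of the counts in the library where their share was lowest. Among them another 4 names, miR-195b, miR-6342, miR-6353 and miR-6419, had the family seed. None of these 4 had a count in any of the 22 libraries. Names without a sequence were not checked for the seed.

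The 6 names had 7 loci in GRCm38. miR-15a-5p (chr14:61632075-61632096, minus strand) and the first copy of miR-16-5p (chr14:61631936-61631957, minus strand) lay 139 bases apart, start to start, in an intron of the long noncoding RNA gene Dleu2. miR-15b-5p (chr3:69009775-69009796, plus strand) and the second copy of miR-16-5p (chr3:69009918-69009939, plus strand) lay 143 bases apart in an intron of Smc4, which encodes a condensin subunit. miR-497a-5p (chr11:70234730-70234751, plus strand) and miR-195a-5p (chr11:70235062-70235082, plus strand) lay 332 bases apart with no host gene on their strand in GENCODE vM21. miR-322-5p (chrX:53054306-53054327, minus strand) had no annotated host either and began 279 bases from miR-503-5p (chrX:53054027-53054049, minus strand). Because the mature miR-16-5p of both copies is 1 sequence, its counts could not be divided between chromosomes 14 and 3.

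RS were rich in this family, and nearly all of that was miR-16-5p. The 6 members together took 33.0% ± 0.575 (SD, n = 5) of all counts in the WT of the KO batch and 31.7% ± 1.85 (n = 5) in KO. In the KI batch they took 31.0% ± 0.735 (n = 6) in WT and 30.7% ± 1.3 (n = 6) in KI. By counts as deposited, miR-16-5p alone made up between 96.3% and 97.2% of the family by group mean and was the most abundant name in all 4 groups.

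These shares lean on how reads with 2 possible origins were counted. With each name's counts divided by its number of loci the family share was 23.1% in the WT of the KO batch, 22.1% in KO, 20.7% in the WT of the KI batch and 20.6% in KI. The first place of miR-16-5p leans on it too. Undivided, miR-16-5p summed to 1556727 counts and miR-34c-5p to 831956 in the WT of the KO batch, and to 1071007 and 558364 in KO. Divided by loci, miR-16-5p would have fewer counts than miR-34c-5p, a name with 1 locus, in all 4 groups. Parity shows that reads were entered at more than 1 locus: among names with 2 loci and a mean of at least 10 counts, 10 of 40 had an even count in every library, against 0 of 316 names with 1 locus. miR-16-5p had an even count in 6 of 22 libraries, so at least some of its reads were entered at 1 copy only, and how many is not known. Others of its reads may have been entered at both copies, in a number that is not known either. The other members were far lower. By mean share miR-15b-5p ranked between 29th and 33rd across the 4 groups, miR-195a-5p between 38th and 50th, miR-15a-5p between 60th and 88th, miR-497a-5p between 77th and 91st, and miR-322-5p between 97th and 124th. miR-15a-5p and miR-497a-5p were close neighbours in this order in the KO batch, with CPM of 1180 ± 68.5 (SD, n = 5) and 1030 ± 111 (n = 5) in WT and ranges that overlapped.

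**Figure D1:**
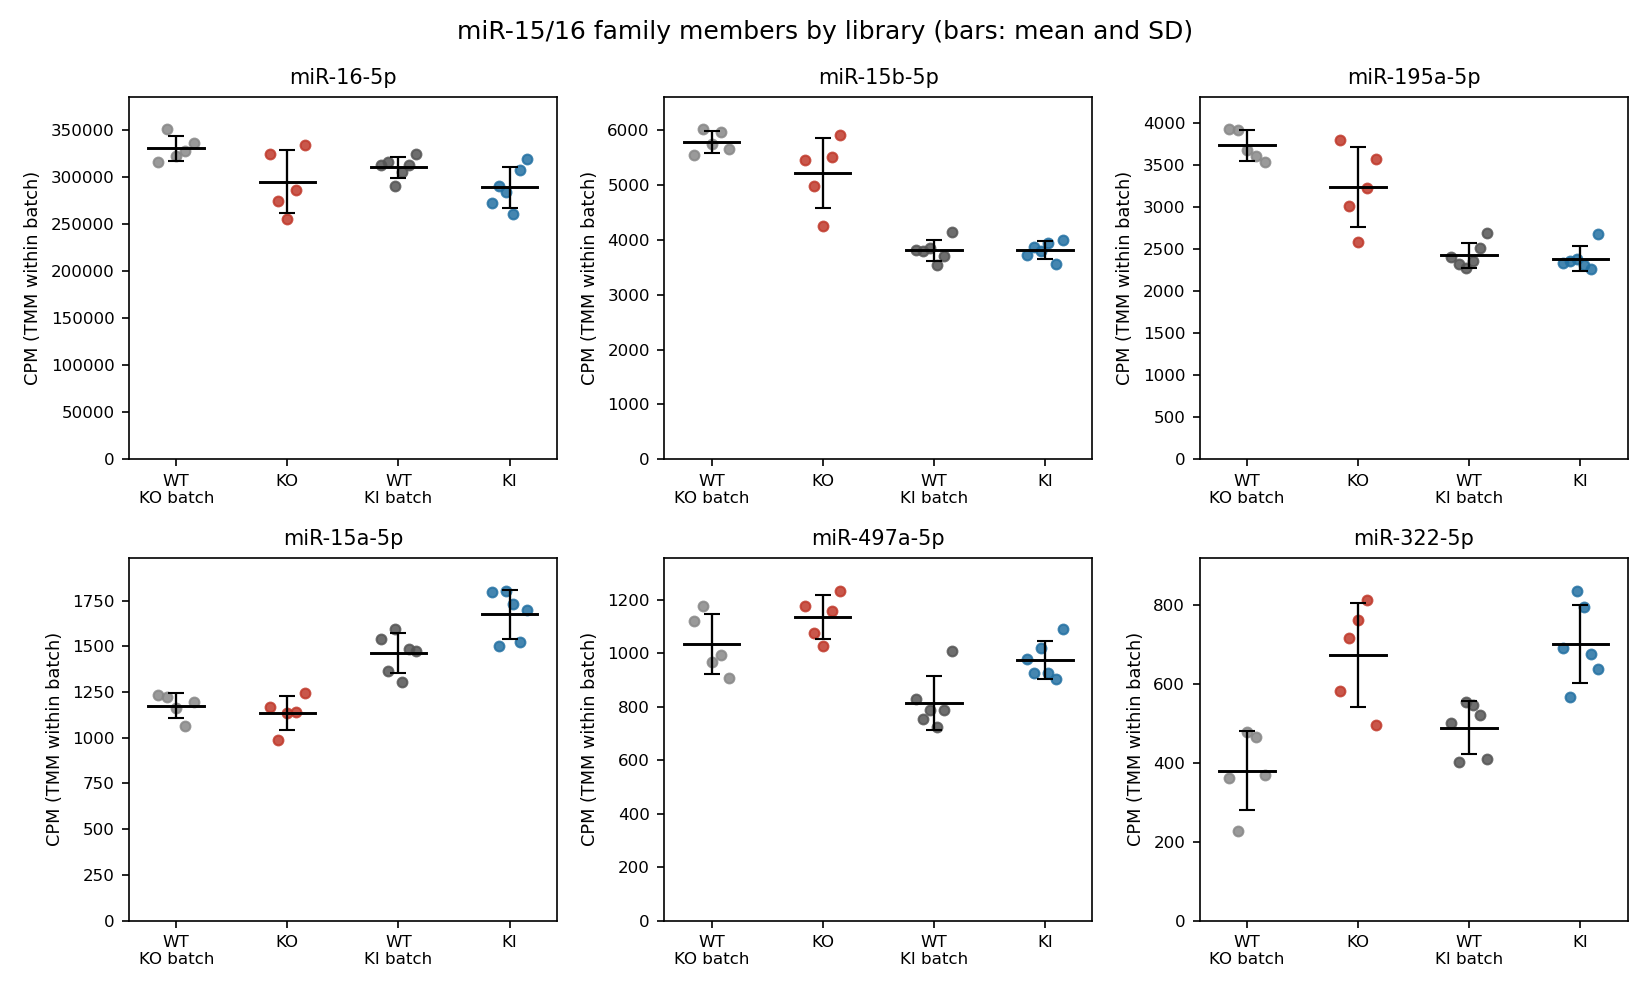
Level of each member in CPM (scaled counts, with TMM factors computed within each batch, linear axis from 0) by library in the 4 groups. Points are libraries, horizontal bars are means and error bars are SD. The KO and KI points of miR-322-5p lie above all WT points of their batch, and the groups of the other members overlap within each batch.

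miR-322-5p was the member that rose in both mutants. In the KO batch its CPM was 361, 228, 477, 466 and 368 in the 5 WT libraries and 582, 715, 763, 812 and 495 in the 5 KO libraries. No KO library was as low as the highest WT library, although the gap between the groups was narrow, and the means were 380 ± 101 (SD, n = 5) in WT and 673 ± 131 (n = 5) in KO. The change was 0.82 on the log2 scale (SE 0.19, 1.77-fold), with an adjusted p of 0.00889 in edgeR's quasi-likelihood test with Benjamini-Hochberg adjustment over all names tested. A call is an adjusted p under 0.1, the threshold the study used.

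In the KI batch miR-322-5p had a lowest, median and highest CPM of 402, 510 and 553 in WT and of 568, 683 and 836 in KI, again without overlap. The means were 488 ± 67.4 (SD, n = 6) in WT and 701 ± 99.5 (n = 6) in KI, a change of 0.52 on the log2 scale (SE 0.11, 1.43-fold, adjusted p = 0.00315). Names without overlap were common in these data, at 20.1% of the names tested in KO against WT and 14.5% in KI against WT. Behind the KO result were between 202 and 688 counts of miR-322-5p per library, and behind the KI result between 797 and 2344. The change of miR-322-5p was 0.29 higher in KO than in KI on the log2 scale (SE 0.22, 95% interval -0.15 to 0.73, adjusted p = 0.546), so no difference between the mutants was detected.

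miRNAs of other cell types moved in the same libraries. Of the 7 miRNAs listed for stroma and vessels, 5 passed the filter and 4 of them were higher in KO, and likewise 4 of 5 were higher in KI. The tested name not called in either mutant was miR-126a-3p. It changed by 0.38 on the log2 scale in KO (adjusted p = 0.327) and by -0.04 in KI (adjusted p = 0.918). Over all names tested, 21.3% were higher in KO and 18.1% in KI. The most abundant, miR-199a-3p of mesenchymal cells, averaged 1210 ± 397 CPM (SD, n = 5) in WT and 2360 ± 615 (n = 5) in KO, and 1170 ± 233 (n = 6) in WT and 2010 ± 631 (n = 6) in KI. The summed CPM of this list ran from 898 to 2480 in WT and from 2270 to 4740 in KO, and from 1230 to 2130 in WT and from 2000 to 4400 in KI. Of the 7 miRNAs listed for blood and immune cells 6 were tested, and 3 were higher in KO and 5 in KI. Their summed CPM ran from 4780 to 6060 in WT and from 5440 to 7150 in KO, and from 2690 to 3440 in WT and from 3380 to 5310 in KI. Of the erythroid pair in that list, miR-144-3p was at 0 in 3 of the 4 groups and at 0.208 CPM by mean in KO, while miR-451a averaged 59.6 CPM in WT and 47.8 in KO, and 29.8 in WT and 32.5 in KI.

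The germ cell and muscle lists gave the following values. miR-34c-5p of germ cells was lower in both mutants, by 0.21 on the log2 scale in KO (adjusted p = 0.0809) and by 0.11 in KI (adjusted p = 0.0271), and miR-34b-5p was lower in KO. In KI miR-34b-5p was not called (-0.12, adjusted p = 0.271). miR-449a-5p was called in neither mutant (0.00 in KO, adjusted p = 0.955, and 0.04 in KI, adjusted p = 0.569). For comparison, 20.7% of all names tested were lower in KO and 19.9% in KI. The summed germ cell markers ran from 216000 to 264000 CPM in WT and from 187000 to 245000 in KO, and from 322000 to 351000 in WT and from 289000 to 331000 in KI. Among 4 muscle miRNAs, miR-133b-3p and miR-206-3p were at 0 in all groups, 1 name, miR-1a-3p, was tested in KO and was higher by 1.79 on the log2 scale (adjusted p = 0.0417), and neither of the 2 tested in KI was called. KO library 1 had 143.5 CPM of miR-1a-3p and the other KO libraries between 10.17 and 35.34, beside 6.96 to 27 in WT. Summed muscle CPM ran from 9.28 to 33.2 in WT and from 13.6 to 167 in KO, and from 35.3 to 651 in WT and from 34.4 to 478 in KI. The part of these markers in the rise of miR-322-5p was not tested.

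miR-16-5p, the abundant member, was slightly lower in KO. Its CPM in the WT libraries was 316000, 351000, 322900, 328100 and 336400, and in the KO libraries 325300, 274400, 255600, 286600 and 334200. KO libraries 1 and 5 lay among the WT libraries and the other 3 lay below them. The change was -0.16 on the log2 scale (SE 0.071, adjusted p = 0.0927). This call sat at the threshold: it was lost in 8 of the 10 fits that left out 1 library, with adjusted p up to 0.18, and held without KO library 1 or without KO library 5. In KI the lowest, median and highest CPM were 291000, 313000 and 325000 in WT and 261000, 288000 and 319000 in KI, with a change of -0.10 (SE 0.046, adjusted p = 0.106) that was not called. With scaling by library size alone the change of miR-16-5p was -0.06 in KO (adjusted p = 0.266).

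miR-15a-5p and miR-497a-5p passed the test in KI. miR-15a-5p had a lowest, median and highest CPM of 1310, 1480 and 1600 in WT and 1500, 1710 and 1800 in KI, so the groups overlapped in part. Its change was 0.20 on the log2 scale (SE 0.07, 1.15-fold, adjusted p = 0.0442), and without KI library 4 it was 0.16 (adjusted p = 0.116). miR-497a-5p had 724, 788 and 1010 CPM in WT and 904, 951 and 1090 in KI, and only the highest WT library lay within the range of KI. Its change was 0.26 (SE 0.083, 1.19-fold, adjusted p = 0.0301).

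Neither was called in KO. miR-15a-5p changed by -0.05 in KO (SE 0.08, 95% interval -0.23 to 0.12, adjusted p = 0.636). miR-497a-5p changed by 0.13 (SE 0.09, 95% interval -0.06 to 0.33, adjusted p = 0.257). The differences between the KO and KI changes were -0.26 for miR-15a-5p (SE 0.11, adjusted p = 0.265) and -0.13 for miR-497a-5p (SE 0.13, adjusted p = 0.664), neither of them called.

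miR-15b-5p and miR-195a-5p passed in neither mutant. miR-15b-5p averaged 5790 ± 198 CPM (SD, n = 5) in WT and 5220 ± 633 (n = 5) in KO, a change of -0.15 on the log2 scale (SE 0.083, adjusted p = 0.181) that reached an adjusted p of 0.0665 without KO library 5. In KI it averaged 3820 ± 157 (n = 6) against 3810 ± 197 (n = 6), with a 95% interval of the change from -0.10 to 0.11. miR-195a-5p averaged 3740 ± 180 (n = 5) in WT and 3240 ± 477 (n = 5) in KO, a change of -0.20 (SE 0.096, adjusted p = 0.122). That change passed without KO library 1 (-0.28, adjusted p = 0.0379) and without KO library 5 (-0.25, adjusted p = 0.0727). In KI it averaged 2390 ± 149 (n = 6) against 2430 ± 152 (n = 6), with a 95% interval from -0.15 to 0.10. For both, the spread between KO libraries was wider than between the WT libraries, and KO library 3 was the lowest.

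**Figure D2:**
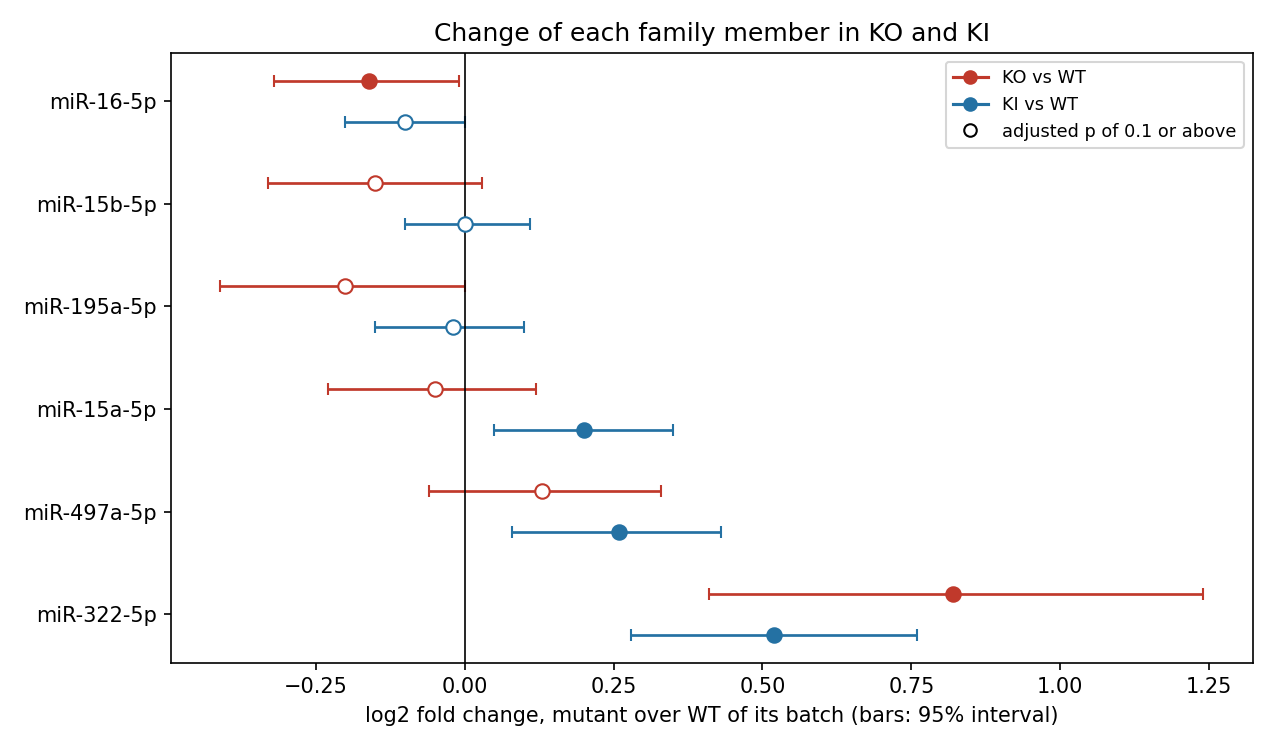
Log2 fold change of each member in KO and in KI, relative to WT libraries of the same batch, on a linear axis, with 95% intervals from edgeR's quasi-likelihood fit. Filled points have an adjusted p under 0.1; miR-322-5p is filled in both mutants and has the highest values, 0.82 in KO and 0.52 in KI.

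The counts of calls in the family are set beside those over all names, and with only 6 members they are a description. In KO 2 of the 6 members were called, miR-322-5p higher and miR-16-5p lower, whereas calls were made for 41.9% of the 334 names tested (21.3% higher, 20.7% lower). In KI 3 of the 6 were called, all higher, whereas calls were made for 38% of the 387 names tested (18.1% higher, 19.9% lower). With scaling by library size alone the 71 higher and 69 lower names in KO became 101 and 44, and the 70 and 77 in KI became 96 and 53. The median change of the 6 members was -0.10 in KO and 0.10 in KI on the log2 scale, beside medians of 0.015 and 0.001 over all names tested. In the test of the KO change minus the KI change none of the 6 members was called by edgeR, and 1 of them, miR-15a-5p, had an unadjusted p under 0.05. Over all 421 names in that test 0% were called, and 67 had an unadjusted p under 0.05.

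The neighbours of miR-322-5p on the X chromosome were read next, since a cluster can be made as 1 precursor. Of 11 neighbouring names, 4 passed the filter in the KO comparison and 3 of them were higher. miR-503-5p averaged 72.6 ± 13.3 CPM (SD, n = 5) in WT and 112 ± 18.2 (n = 5) in KO, a change of 0.62 on the log2 scale (SE 0.16, adjusted p = 0.013). miR-351-5p, 991 bases from miR-322-5p, averaged 46.8 ± 19.9 in WT and 89.5 ± 28.5 in KO, a change of 0.94 (SE 0.28, adjusted p = 0.0249). miR-503-3p changed by 0.93 (SE 0.33, adjusted p = 0.0507) on between 4 and 20 counts per library, and it lost its call without WT library 4, WT library 5, KO library 2 or KO library 3 (adjusted p up to 0.115). miR-542-3p changed by 0.34 (SE 0.32, adjusted p = 0.43). In KO, then, the 2 neighbours with the most counts were higher along with miR-322-5p, although KO and WT libraries overlapped for both.

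In KI the neighbours gave other values. Of the 7 tested, only miR-503-3p was called, with a change of 0.57 (SE 0.2, adjusted p = 0.0442) on between 9 and 33 counts per library, a call lost without a filter on low counts (adjusted p = 0.157). miR-503-5p averaged 124 ± 21.4 CPM (SD, n = 6) in WT and 127 ± 6.03 (n = 6) in KI, and the 95% interval of its change ran from -0.20 to 0.27. miR-351-5p averaged 34.7 ± 9.52 in WT and 38.1 ± 9.1 in KI, with an interval from -0.30 to 0.55. miR-450a-5p, with 10.6 ± 3.98 CPM in WT and 11.4 ± 2.29 in KI, and miR-542-3p, with 13.4 ± 4.81 and 16.7 ± 2.41, were not called, although miR-542-3p passed without WT library 3 (0.51, adjusted p = 0.0533). The change was 0.57 higher in KO than in KI for miR-503-5p (SE 0.18, unadjusted p = 0.0049) and 0.81 higher for miR-351-5p (SE 0.35, unadjusted p = 0.0285), but adjusted p was 0.202 and 0.255, so the difference did not pass.

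**Figure D3:**
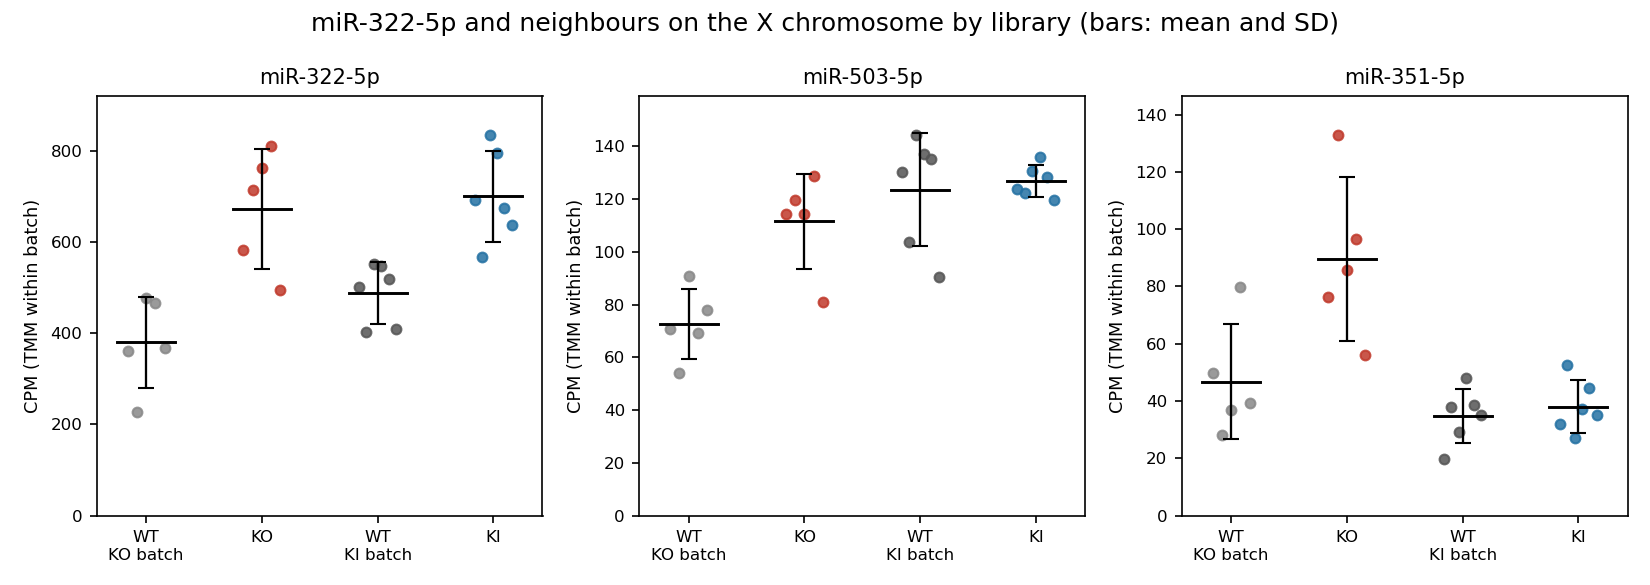
CPM of miR-322-5p and of its neighbours miR-503-5p and miR-351-5p by library in the 4 groups, on linear axes from 0. Points are libraries, with mean and SD; miR-503-5p averages 112 in KO over 72.6 in WT, but 127 in KI beside 124 in WT.

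A ratio between names of the same library does not depend on how libraries are scaled to each other. Over miR-503-5p, the log2 ratio of miR-322-5p lay between 1.93 and 2.17 in the WT of the KI batch and between 2.21 and 2.68 in KI. These groups did not overlap, by a narrow gap. It lay between 2.06 and 2.74 in the WT of the KO batch and between 2.34 and 2.73 in KO, where the groups overlapped. Among single names, 14.5% did not overlap in KI against WT and 20.1% in KO against WT. The ratio was not tested. Over miR-16-5p, the log2 ratio of miR-322-5p averaged -9.81 ± 0.47 (SD, n = 5) in WT and -8.79 ± 0.45 (n = 5) in KO, and -9.32 ± 0.25 (n = 6) in WT and -8.70 ± 0.28 (n = 6) in KI.

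The ratio within the pair on chromosome 11 was higher in both mutants. The log2 ratio of miR-497a-5p over miR-195a-5p lay between -1.96 and -1.74 in the WT of the KO batch and between -1.69 and -1.33 in KO. In the KI batch it lay between -1.70 and -1.42 in WT and between -1.35 and -1.23 in KI. The groups did not overlap in either batch. The ratio of pooled read counts, miR-497a-5p over miR-195a-5p, moved from 0.28 to 0.35 in KO and from 0.34 to 0.41 in KI. These ratios were chosen after the values of each name had been seen, so they are given without a test. How often the ratios of other pairs of names do not overlap was not counted. Among single names, 20.1% did not overlap in KO against WT and 14.5% in KI against WT. By contrast, the ratio of miR-195a-5p to miR-15b-5p, which lie on different chromosomes, stayed within a log2 ratio of -0.77 to -0.50 in all 22 libraries. Over miR-16-5p, the mean log2 ratio of miR-195a-5p was -6.47 in WT and -6.51 in KO, and -7.00 in WT and -6.92 in KI. That of miR-497a-5p was -8.33 in WT and -8.02 in KO, and -8.58 in WT and -8.22 in KI. miR-195a-5p is identical to the far more abundant miR-16-5p at 19 of 21 bases. Whether reads of miR-16-5p were counted as miR-195a-5p was not tested.

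**Figure D4:**
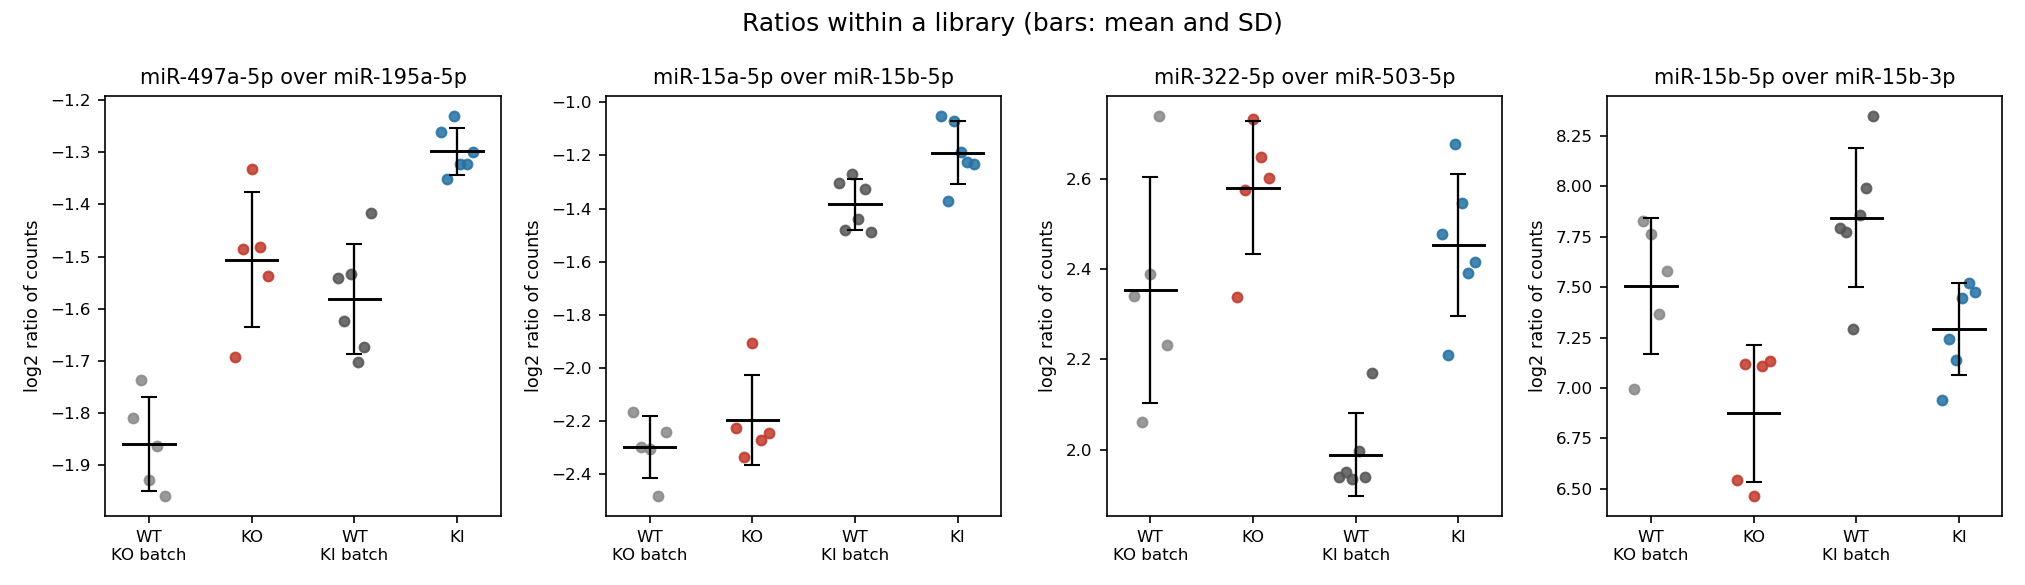
Log2 ratios of counts within a library, each with a pseudocount of 0.5, for miR-497a-5p over miR-195a-5p, miR-15a-5p over miR-15b-5p, miR-322-5p over miR-503-5p and miR-15b-5p over miR-15b-3p, on linear axes that do not start at 0. Points are libraries, with mean and SD; the KO and KI points of the first ratio lie above all WT points of their batch.

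Each hairpin also yields a second arm, which in this family is the rarer product and has another seed. The 7 other arms summed to between 60.5 and 121 CPM in every library, against between 265000 and 364000 CPM for the members. In KO 3 passed the filter and 2 were called, both higher. In KI all 7 passed and 3 were called, all higher. Over all names tested, calls of higher levels came to 21.3% in KO and 18.1% in KI, and with so few arms these counts are a description. miR-15b-3p was called in both mutants. It had 42.9, 26, 25.9, 35.6 and 29.1 CPM in the WT libraries and 57.9, 35.3, 47.6, 39 and 41.3 in the KO libraries, which overlapped, and its change was 0.47 (SE 0.2, adjusted p = 0.0892). That call held only without WT library 1 or without KO library 2 among the fits that left out a library, with adjusted p up to 0.21. It was also lost without a filter on low counts (adjusted p = 0.321), with counts divided by loci (adjusted p = 0.109) and with all 4 groups in 1 fit (adjusted p = 0.102). In KI its lowest, median and highest CPM were 19.2, 23.9 and 30.1 against 12.5, 16 and 24.3 in WT, a change of 0.55 (SE 0.17, adjusted p = 0.0214), and this call held in all 12 such fits. miR-195a-3p was higher in KO by 0.67 (SE 0.29, adjusted p = 0.0927), on between 8 and 26 counts per library, and held in 3 of 10 such fits, those without WT library 5, KO library 1 or KO library 4. miR-497a-3p and miR-16-1-3p were higher in KI by 0.52 (SE 0.22, adjusted p = 0.0956) and 0.34 (SE 0.15, adjusted p = 0.0978), calls that held in 4 and 3 of 12 such fits. miR-497a-3p held without WT libraries 1, 4 or 5 or KI library 6, and miR-16-1-3p without WT library 3 or KI libraries 2 or 5. Without a filter on low counts all of these calls were lost: miR-195a-3p in KO (adjusted p = 0.211), and miR-497a-3p (adjusted p = 0.184) and miR-16-1-3p (adjusted p = 0.24) in KI. miR-195a-3p also lost its call with counts divided by loci (adjusted p = 0.1), and miR-16-1-3p with all 4 groups in 1 fit (adjusted p = 0.131).

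The balance of the 2 arms of the miR-15b hairpin moved, while its main arm was not called. The log2 ratio of miR-15b-5p over miR-15b-3p averaged 7.51 ± 0.34 (SD, n = 5) in WT and 6.87 ± 0.34 (n = 5) in KO, a difference of -0.63 (SE 0.2, adjusted p = 0.0826 in limma). In the KI batch it averaged 7.84 ± 0.34 (n = 6) in WT and 7.29 ± 0.23 (n = 6) in KI, a difference of -0.55 (SE 0.16, adjusted p = 0.0456). Among all hairpins tested in the same way, the called share was 10.5% of 76 for KO and 19% of 100 for KI. The KO call held without WT library 1 and without KO libraries 1, 2 or 4 and was lost without any of the other 6, with adjusted p up to 0.195, whereas the KI call held in all 12. The rarer arm had between 23 and 44 counts per library in the KO batch and between 34 and 97 in the KI batch. For the miR-195a hairpin the difference was -0.85 in KO (SE 0.32, adjusted p = 0.144) and -0.25 in KI (SE 0.2, adjusted p = 0.44), neither of them called, although the KO difference passed without KO library 1 (-1.02, adjusted p = 0.0481) or KO library 4 (-1.04, adjusted p = 0.0599).

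miR-322-3p was too rare for the KO test. It had 12 counts in the 5 WT libraries together and 31 in the 5 KO libraries, and 56 and 80 in the 6 WT and 6 KI libraries of the other batch, where its change was 0.44 (SE 0.28, adjusted p = 0.26) and passed without KI library 6 (0.59, adjusted p = 0.0737).

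The WT libraries of the 2 batches differed from each other in this family. With both WT groups scaled together, miR-15a-5p averaged 1000 ± 105 CPM (SD, n = 5) in the KO batch and 1580 ± 110 (n = 6) in the KI batch, a difference of 0.65 on the log2 scale (SE 0.084, adjusted p = 1.3e-05). miR-322-5p averaged 321 ± 78.3 and 526 ± 66, a difference of 0.71 (SE 0.15, adjusted p = 0.000971). miR-15b-5p was lower in the KI batch by 0.26 (SE 0.061, adjusted p = 0.00214) and miR-195a-5p by 0.28 (SE 0.071, adjusted p = 0.00354), while miR-497a-5p gave 0.00 (SE 0.10, adjusted p = 0.989). In all 5 of the 6 members were called, where 56.7% of the 383 names tested were called, and 36.6% did not overlap.

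These differences depended on the scaling, and for miR-16-5p so did the direction. It was 0.25 higher in the KI batch (SE 0.051, adjusted p = 0.000767) with TMM and 0.08 lower with library size alone (log2 difference -0.08, adjusted p = 0.00674). The median of all names was -0.34 with that scaling. Under it miR-497a-5p was called lower in the KI batch (-0.33, adjusted p = 0.00709), miR-15a-5p gave 0.33, miR-322-5p 0.37, miR-15b-5p -0.59 and miR-195a-5p -0.61. The ratio of miR-15a-5p to miR-15b-5p, which needs no scaling, lay between -2.48 and -2.17 in the WT of the KO batch and between -1.49 and -1.27 in the WT of the KI batch on the log2 scale. For miR-16-1-3p over miR-16-2-3p, the rarer arms that tell the copies of miR-16 apart, the log2 ratio was 0.72 ± 0.59 (SD, n = 5) in the first and 1.82 ± 0.35 (n = 6) in the second, on totals of 58 and 36 counts and of 346 and 99, with ranges that overlapped. In both ratios the mean leaned more to the cluster on chromosome 14 in the KI batch. Batch and mutant are confounded, so levels of KO and KI cannot be compared with each other directly.

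Likeness to other miRNAs was described over the 22 libraries as Pearson's r of log2(CPM + 1), each library taken relative to the WT mean of its batch. Among 294 names with at least 10 CPM, miR-322-5p was most like miR-101a-3p, miR-23a-3p and miR-10b-5p, each with r = 0.93. miR-16-5p was most like miR-25-3p (r = 0.92), miR-9-5p (r = 0.88) and miR-148b-3p (r = 0.84). miR-195a-5p was most like miR-9-5p (r = 0.86), miR-350-3p (r = 0.81) and miR-141-3p (r = 0.78), and miR-15b-5p like miR-350-3p (r = 0.77), miR-18a-5p (r = 0.74) and miR-669f-3p (r = 0.73). For miR-15a-5p these were miR-124-3p (r = 0.83), miR-19a-3p (r = 0.81) and miR-30b-5p (r = 0.81), and for miR-497a-5p they were miR-30e-3p (r = 0.84), miR-30e-5p (r = 0.77) and miR-30a-3p (r = 0.77).

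Within the family r was 0.85 between miR-15b-5p and miR-195a-5p, 0.80 between miR-16-5p and miR-195a-5p and -0.79 between miR-16-5p and miR-322-5p. The points share libraries, scaling and genotype groups, so these values are descriptions only.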

How the data were processed

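Small RNA of RS was sequenced in 22 libraries. Per the study's methods, the authors trimmed reads with cutadapt 3.4, aligned them to GRCm38 (mm10) with Bowtie2 2.4.2 in local mode with many alignments kept per read, and counted them by strand over miRBase mature miRNAs with featureCounts 2.0.1. The deposited values are raw counts per mature name, 1966 names over 2110 loci. Names that share reads, above all miR-16-5p with 2 loci, are uncertain: even counts in names with 2 loci (72.6% of values of at least 10, against 50.3% for 1 locus) show that reads were entered at both loci in part.

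Counts were tested in edgeR 4.0.16 (R 4.3.3) with filterByExpr, TMM scaling and the quasi-likelihood F-test, separately for KO and KI against the WT of their batch, with p-values adjusted by Benjamini-Hochberg over all names and called under 0.1. Arm ratios were tested with limma 3.58.1 over hairpins with at least 10 mean counts per arm and group. The difference between mutants came from 1 fit of all 4 groups. Intervals are 95%. On simulated data with 200 names changed by 1 on the log2 scale, 98% were recovered for KO, 99% for KI and 87% for the difference between mutants. The simulated names all had the same spread, and the members changed by less than that, at most 0.82 in KO. These rates therefore do not tell how often changes as small as those of the members would be called. DESeq2 1.42.0, other scalings and filters, a replicate block and fits without each library were alternatives. Mature sequences came from RefSeq, in which 1675 of the 1966 names were found; loci were annotated with GENCODE vM21.

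The text names all 6 members, and other arms and X chromosome neighbours of at least 10 CPM in a group. Others are given by counts, with miR-322-3p and miR-16-2-3p added after their values were seen. Also named are those with the same seed among names with a RefSeq sequence, and the 3 names most like each member. The members and lists were chosen with earlier results of these data known.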

Additional observations from a re-analysis of the deposited data

Results flagged for a closer look

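miR-195a-5p in KI library 6 stood apart from the rest of its group: log2(CPM + 1) was 11.39 there and between 11.14 and 11.22 in the other 5 KI libraries, which leaves a gap of 0.676 when divided by the group's whole range. Of the 28 groups of values screened in this way, chance marks about 1 in 20.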

How the results depend on the processing

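miR-322-5p kept its direction and its call in all 7 alternatives and all leave-one-out fits, with changes from 0.68 to 0.94 in KO and from 0.46 to 0.61 in KI. Of the 24 results for single members over the 4 comparisons, 148 of 162 alternatives and 316 of 330 leave-one-out fits kept direction and side of the threshold. These totals include results never called in the main fit. Among them are all 6 members in the KO minus KI test, each kept in 6 of 6 alternatives and 22 of 22 leave-one-out fits. miR-16-5p in KO kept its call in 4 of 7 alternatives and 2 of 10 leave-one-out fits. In KO the 2 members called became 1 with DESeq2, which lost miR-16-5p (adjusted p = 0.213), and between 1 and 4 when a library was left out, with 4 without KO library 5. miR-195a-5p gained a call in KO in 4 alternatives (adjusted p from 0.0631 to 0.0961), and miR-497a-5p with library size alone (0.24, adjusted p = 0.0461). miR-15a-5p lost its KI call without a filter on low counts (adjusted p = 0.157), and miR-16-5p gained one in KI without WT library 3 (adjusted p = 0.0662) or KI library 6 (adjusted p = 0.0608). Between the WT batches the 5 members called became 3 without a filter, miR-497a-5p gained a call with library size alone, and miR-16-5p reversed to -0.08 with library size alone. With library size alone the median of all names was 0.13 in KO and 0.09 in KI. That scaling turned 103 higher and 114 lower calls between the WT batches into 47 and 193. Calls over all names in the test of KO minus KI went from 0 to between 0 and 26 when a library was left out, 26 without KI library 2, with no member among them. Arm ratio calls in KO went from 8 to 4 with at least 50 counts per arm and to between 0 and 20 without a library; 0 came without WT library 3, WT library 5 or KO library 3, and 20 without KO library 1. Family shares with loci-divided counts were 23.1%, 22.1%, 20.7% and 20.6% in the order of the report, and with TMM-scaled CPM 34.3% in the WT of the KO batch, 30.7% in KO, 32.0% in the WT of the KI batch and 29.9% in KI. The causes of these changes were not tested.

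Libraries carry replicate numbers shared across groups, but not every same-numbered pair deviated together, so the numbers were not taken to pair the libraries: r ran from -0.20 to 0.30 in KO against WT and from -0.12 to 0.56 in KI against WT, over 0.1 in 2 of 5 and 3 of 6 pairs, and 2 of 5 and 3 of 6 correlated best with their own number. With a replicate block 1 member was called in KO, since miR-16-5p lost its call (adjusted p = 0.121), miR-16-5p was called in KI (adjusted p = 0.0245), the arm ratio calls in KO went to 16 and the calls in KO minus KI to 25, with no member among them; miR-195a-3p lost its KO call (adjusted p = 0.149) and the miR-195a arm ratio gained one (adjusted p = 0.0934). Counts of the rarer arm of miR-15b ran from 23 to 44 per library in the KO batch and from 34 to 97 in the KI batch.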
